A study of Oryza sativa with 6 samples.

Results

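The 6 rice (Oryza sativa) loci described here form a MAP kinase pathway that acts on the size of the spikelet hull, the pair of bracts that enclose the grain. They were taken by locus identifier, for their place in the pathway, from the 46732 loci of the table: OsER1 (LOC_Os06g10230), OsMKKK10 (LOC_Os04g47240), OsMKK4, also called SMG1 (LOC_Os02g54600), OsMAPK6 (LOC_Os06g06090), OsMKP1, also called GSN1 (LOC_Os05g02500), and OsWRKY53 (LOC_Os05g27730). The table holds identifiers only, so the names are those in common use for these identifiers, and the annotation given here for the loci is the chromosome number within each identifier. All 6 were present and tested. Library totals recovered from the values lay between 43536754 and 52466060 reads, and the labels give no batch or date. RNA was measured in young panicles of 8 to 10 cm from NIL-qigl1HD385 and NIL-qIGL1NIP, near-isogenic lines whose names mark the HD385 or NIP allele at qIGL1, a grain length QTL. Each line has 3 libraries, and the study asked which genes differ in expression between the lines. The labels call both lines wild type, name no treatment, and give neither the segments each line carries nor the number of plants behind a library, so p-values reflect library-to-library spread, possibly technical in part or whole. Whole panicles were used, so the levels are not specific to the hull, and fewer cells of a type and less RNA per cell cannot be told apart.

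A MAP kinase cascade passes a signal by successive phosphorylation: a MAPKKK phosphorylates a MAPKK, which phosphorylates a MAPK, which then acts on its targets. In rice, OsER1 is a receptor kinase of the ERECTA family placed upstream of the cascade OsMKKK10, OsMKK4 and OsMAPK6. OsMKP1 is a phosphatase that removes the phosphates activating OsMAPK6, and OsWRKY53 is a transcription factor phosphorylated by OsMAPK6. The pathway is known for setting cell number in the hull, and with it grain size, and for its part in panicle branching. Since the cascade signals by phosphorylation, RNA levels do not show how active these proteins were.

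The receptor, the 3 cascade kinases and the phosphatase had estimated log2 changes of at most 0.11 in size between NIL-qigl1HD385 and NIL-qIGL1NIP panicles. OsWRKY53 had 0.488 times the NIL-qIGL1NIP level in NIL-qigl1HD385, a difference that missed the threshold after adjustment. Of the 6 loci, 0 passed the test, a Benjamini-Hochberg adjusted p under 0.05 in limma, where 0.733% of the 23181 tested loci were called that way (0.375% higher and 0.358% lower in NIL-qigl1HD385). At an unadjusted p under 0.05, 1 of the 6 passed in limma, OsWRKY53, where 17.0% of tested loci did, so this count is at the background share. Limma voom on recovered reads also called 0 after adjustment. The 95% interval of the difference included 0 for the 5 other loci, and that of OsER1 reached from -0.53 to 0.69. The 6 had a median log2 change of 0.06, against 0.02 over all tested loci.

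**Figure D1:**
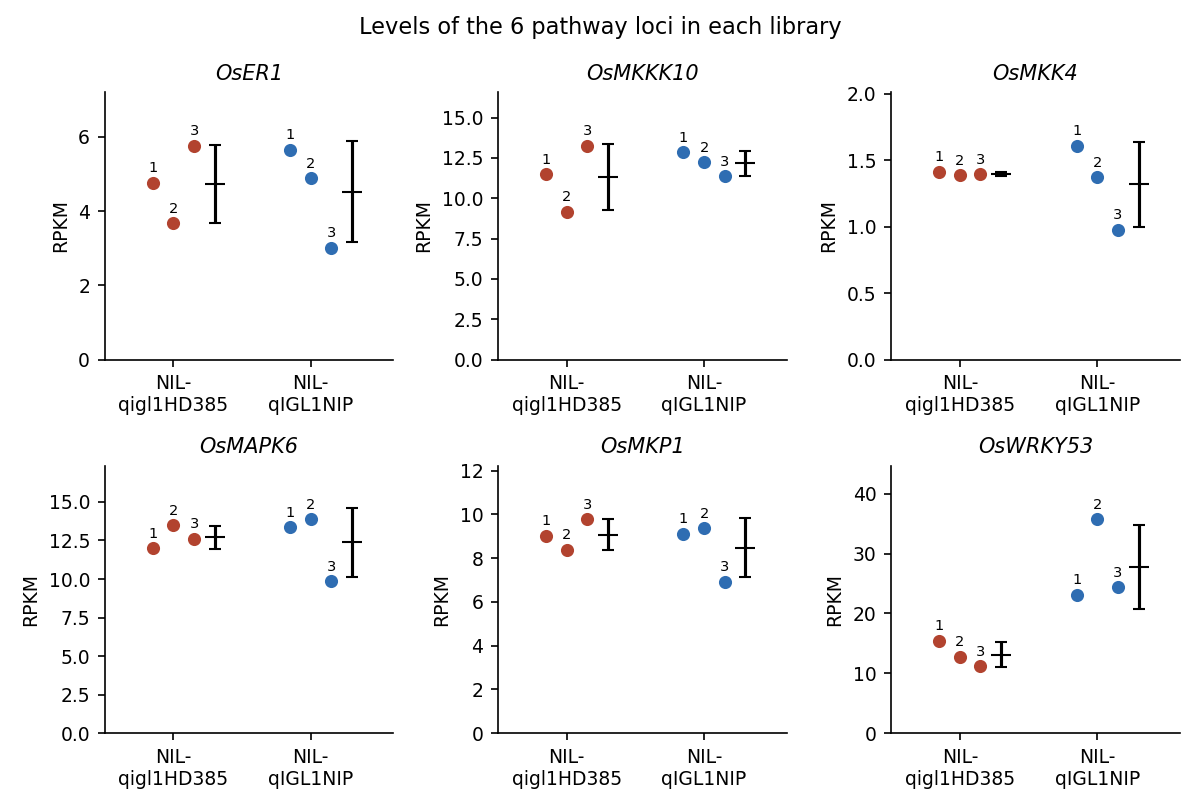
RPKM (vertical axes, from 0) of each locus in the 3 libraries of NIL-qigl1HD385 (red) and of NIL-qIGL1NIP (blue), numbered by replicate, with the mean and SD of the line in black. The lines overlap for all loci but OsWRKY53, whose NIL-qigl1HD385 libraries reach at most 15.4 RPKM and whose NIL-qIGL1NIP libraries start at 23.1 RPKM.

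OsER1, the receptor, had 4.76, 3.68 and 5.77 RPKM (reads per kilobase of the gene model, scaled to library depth) in NIL-qigl1HD385 replicates 1, 2 and 3, against 5.65, 4.89 and 3.01 RPKM in NIL-qIGL1NIP. The lines overlapped widely, and the lowest value belonged to NIL-qIGL1NIP replicate 3. The means were 4.74 ± 1.04 RPKM in NIL-qigl1HD385 panicles and 4.52 ± 1.36 RPKM in NIL-qIGL1NIP panicles (SD, n = 3 each), and the log2 change was 0.08 (SE 0.25, 95% interval -0.53 to 0.69, adjusted p = 0.90 in limma). OsER1 varied most within lines among the 6, with a within-line SD of 0.364 on the log2 scale, which exceeded that of 79.2% of tested loci. Changes of up to 1.61-fold higher or down to 0.694-fold thus lie within its interval.

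OsMKKK10, the first kinase of the cascade, had 11.5, 9.17 and 13.3 RPKM in NIL-qigl1HD385, against 12.9, 12.2 and 11.4 RPKM in NIL-qIGL1NIP. The highest and the lowest library were both of NIL-qigl1HD385. Its log2 change was -0.11 (SE 0.15, 95% interval -0.47 to 0.24, adjusted p = 0.73 in limma). This locus had the most reads of the cascade, 2132 to 3249 in a library over a gene model of 4810 bases.

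OsMKK4, the middle kinase, had the lowest level of the 6, with 1.41, 1.39 and 1.40 RPKM in NIL-qigl1HD385, against 1.61, 1.37 and 0.977 RPKM in NIL-qIGL1NIP. All NIL-qigl1HD385 values lay inside the range of the NIL-qIGL1NIP values. The log2 change was 0.08 (SE 0.17, 95% interval -0.34 to 0.49, adjusted p = 0.86 in limma). Only 80 to 159 reads per library stood behind these values. The SD of 0.0138 RPKM in NIL-qigl1HD385 is smaller than the 0.126 RPKM that counting error alone gives at this depth, so it understates the error.

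OsMAPK6, the kinase at the end of the cascade, had 12.0, 13.5 and 12.6 RPKM in NIL-qigl1HD385, against 13.4, 13.9 and 9.84 RPKM in NIL-qIGL1NIP. The lines overlapped, and NIL-qIGL1NIP held both the highest and the lowest value. Its log2 change was 0.05 (SE 0.15, 95% interval -0.30 to 0.41, adjusted p = 0.89 in limma), so the interval reaches from 0.81-fold to 1.33-fold. The size of this change exceeded that of 14.6% of tested loci, the least of the 6.

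OsMKP1, the phosphatase opposing OsMAPK6, had 9.02, 8.38 and 9.79 RPKM in NIL-qigl1HD385, against 9.11, 9.38 and 6.92 RPKM in NIL-qIGL1NIP. The lowest value was again that of NIL-qIGL1NIP replicate 3, and the lines overlapped. The log2 change was 0.10 (SE 0.14, 95% interval -0.24 to 0.44, adjusted p = 0.75 in limma).

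OsWRKY53, the transcription factor, had 15.4, 12.8 and 11.2 RPKM in NIL-qigl1HD385, against 23.1, 35.8 and 24.4 RPKM in NIL-qIGL1NIP. Every NIL-qigl1HD385 library lay below every NIL-qIGL1NIP library. Such separation was seen for 26.5% of tested loci, and for 10.3% with NIL-qigl1HD385 lower, so 1 of 6 loci is near the background share. It averaged 13.1 ± 2.13 RPKM in NIL-qigl1HD385 libraries and 27.8 ± 6.96 RPKM in NIL-qIGL1NIP libraries (SD, n = 3 each).

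The log2 change of OsWRKY53 was -1.04 (SE 0.20, 95% interval -1.51 to -0.56), or 0.488-fold with an interval of 0.35 to 0.68. After adjustment over all tested loci it missed the threshold (adjusted p = 0.095, limma). In size, the change exceeded that of 96.7% of tested loci, and 548 of the 23181 loci had a log2 change of -1 or lower. Without NIL-qIGL1NIP replicate 2, the library with 35.8 RPKM, the log2 change was -0.84 (adjusted p = 0.17, limma). Across the 16 alternatives the change kept its sign. The adjusted p ran from 0.084 under quantile normalization to 0.25 without NIL-qigl1HD385 replicate 3, both in limma.

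**Figure D2:**
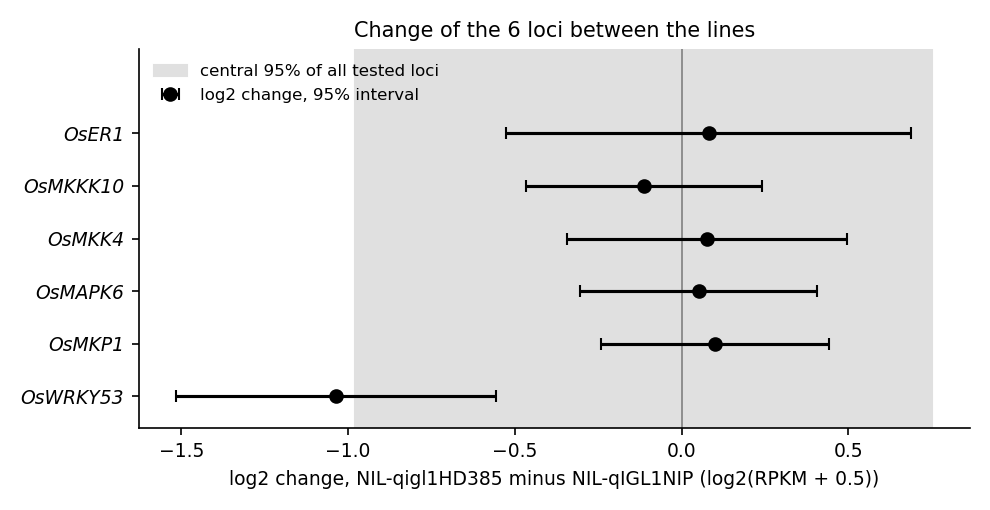
Log2 change between the lines (horizontal axis, NIL-qigl1HD385 minus NIL-qIGL1NIP on log2(RPKM + 0.5)) of each locus with its 95% interval in limma, over a grey band holding the central 95% of the changes of all tested loci, from -0.98 to 0.75. The interval of OsWRKY53 lies wholly below 0, and those of the other 5 loci span 0.

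Summed levels of tissue markers were set beside these values. The 11 floral organ loci (MADS-box and YABBY genes, fixed by identifier) summed to 961 to 1359 RPKM in NIL-qigl1HD385, against 1599 to 1667 RPKM in NIL-qIGL1NIP, without overlap, and all 11 were detected, the lowest at a mean of 10.5 RPKM, which fits the panicle label. The 7 tapetum and anther loci summed to 95.4 to 570 RPKM in NIL-qigl1HD385, against 378 to 1065 RPKM in NIL-qIGL1NIP, with overlap and with the lowest sum in NIL-qigl1HD385 replicate 2. The 4 leaf photosynthesis loci summed to 168 to 217 RPKM in NIL-qigl1HD385, against 127 to 153 RPKM in NIL-qIGL1NIP, without overlap. In limma, 0 of 11 floral, 0 of 6 tested anther and 1 of 4 photosynthesis loci were called, and in voom 0 of them. At an unadjusted p under 0.05 there were 6, 3 and 2, where 17.0% of tested loci passed. None of these 22 loci was at 0 in all libraries. The single endosperm storage locus had at most 0.486 RPKM in any library. The part of tissue composition in the OsWRKY53 values was not tested.

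NIL-qIGL1NIP replicate 3 had the lowest level of the 6 libraries for 4 of the 6 loci: OsER1, OsMKK4, OsMAPK6 and OsMKP1. It lay below its line mean for all 6, with a median deviation of -0.27 on the log2 scale, while 63.7% of all tested loci also lay below their line mean there, with a median deviation of -0.08. NIL-qIGL1NIP replicate 2 lay at or above its line mean for all 6 loci. In NIL-qigl1HD385 replicate 2, 5 of the 6 lay below the line mean, OsMAPK6 being the exception. Without NIL-qIGL1NIP replicate 3, the log2 changes were -0.16 for OsER1, -0.07 for OsMKK4, -0.10 for OsMAPK6 and -0.03 for OsMKP1, so the sign of these small changes rests on that library. None of them was called with or without it. The sign of OsMKKK10 also turned, to 0.02, without NIL-qigl1HD385 replicate 2, and that of OsER1, to -0.06, without NIL-qigl1HD385 replicate 3. OsWRKY53 had a log2 change of -1.11 without NIL-qIGL1NIP replicate 3.

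**Figure D3:**
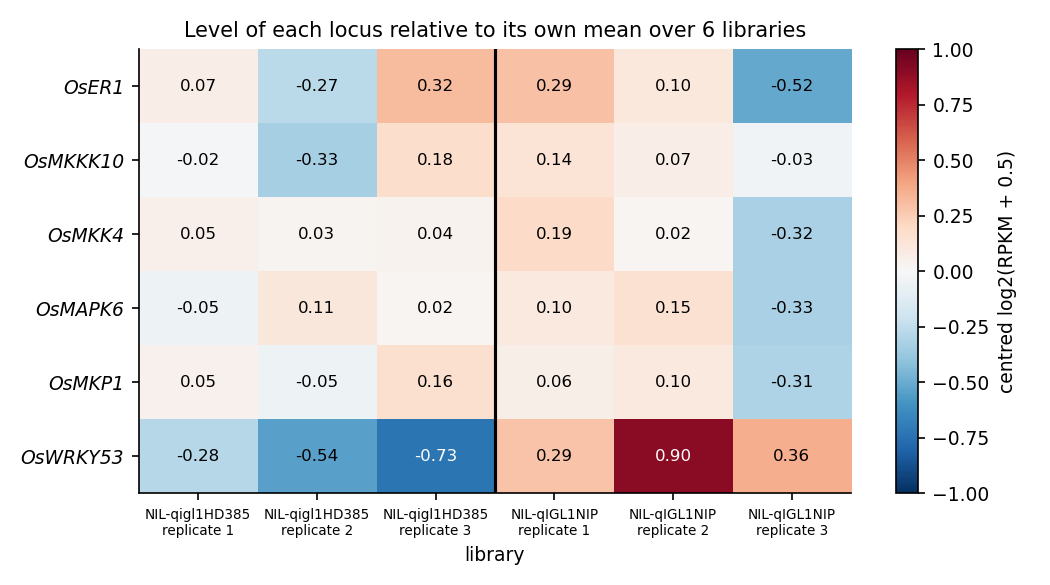
Level of each locus (rows) in each library (columns, NIL-qigl1HD385 left of the black line), as log2(RPKM + 0.5) minus the mean of that locus over the 6 libraries, red above and blue below. The NIL-qIGL1NIP replicate 3 column is blue for the 5 loci other than OsWRKY53, from -0.52 for OsER1 to -0.03 for OsMKKK10, and the OsWRKY53 row changes colour at the line between the groups.

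In order of level, which RPKM allows between loci since it is per length, the means over 6 libraries were 1.36 RPKM for OsMKK4, 4.63 RPKM for OsER1, 8.77 RPKM for OsMKP1, 11.7 RPKM for OsMKKK10, 12.5 RPKM for OsMAPK6 and 20.5 RPKM for OsWRKY53. OsMKK4, OsER1 and OsMKP1 did not overlap with each other over the 6 libraries. OsMKP1 and OsMKKK10 overlapped in NIL-qigl1HD385 but not in NIL-qIGL1NIP, and OsMKKK10 and OsMAPK6 overlapped in both lines. OsWRKY53 overlapped with OsMAPK6 in NIL-qigl1HD385, at 11.2 to 15.4 RPKM for OsWRKY53 and 12.0 to 13.5 RPKM for OsMAPK6. In NIL-qIGL1NIP they stood apart, with OsWRKY53 at 23.1 to 35.8 RPKM and OsMAPK6 at 9.84 to 13.9 RPKM. The means of the 6 loci exceeded those of 16.2% (OsMKK4) to 76.9% (OsWRKY53) of tested loci.

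Ratios within a library show the balance of RNA levels between linked loci apart from shifts that move all loci of that library. They were taken on log2(RPKM + 0.5), so those with the low OsMKK4 are smaller in size than ratios of plain RPKM. On that scale, OsMAPK6 exceeded OsMKK4 by 2.71, 2.89 and 2.79 in NIL-qigl1HD385, and by 2.72, 2.94 and 2.81 in NIL-qIGL1NIP. This ratio varied little and overlapped between the lines. The ratio of the phosphatase OsMKP1 to its target OsMAPK6 was -0.39, -0.65 and -0.35 in NIL-qigl1HD385, against -0.53, -0.54 and -0.48 in NIL-qIGL1NIP. The 3 NIL-qIGL1NIP ratios lay inside the NIL-qigl1HD385 range, although both loci were low in NIL-qIGL1NIP replicate 3. OsMKKK10 over OsER1 averaged 1.18 ± 0.039 in NIL-qigl1HD385 and 1.37 ± 0.34 in NIL-qIGL1NIP (SD, n = 3 each), with 1.76 in NIL-qIGL1NIP replicate 3 and 1.12 to 1.24 in the 5 other libraries. OsMKK4 over OsMKKK10 averaged -2.62 ± 0.25 in NIL-qigl1HD385 and -2.81 ± 0.18 in NIL-qIGL1NIP, with overlap.

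OsWRKY53 over OsMAPK6 was 0.35, -0.07 and -0.16 in NIL-qigl1HD385, against 0.77, 1.33 and 1.27 in NIL-qIGL1NIP. These ratios did not overlap, and the line difference was -1.09. Of the 5 ratios this one alone separated the lines. OsMAPK6 had a log2 change of only 0.05 and OsWRKY53 one of -1.04. The ratio thus mostly repeats the OsWRKY53 difference and is not a separate observation. With 3 libraries per line, the ratios are given without a test, and no share of separated ratios over other pairs of loci is given.

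**Figure D4:**
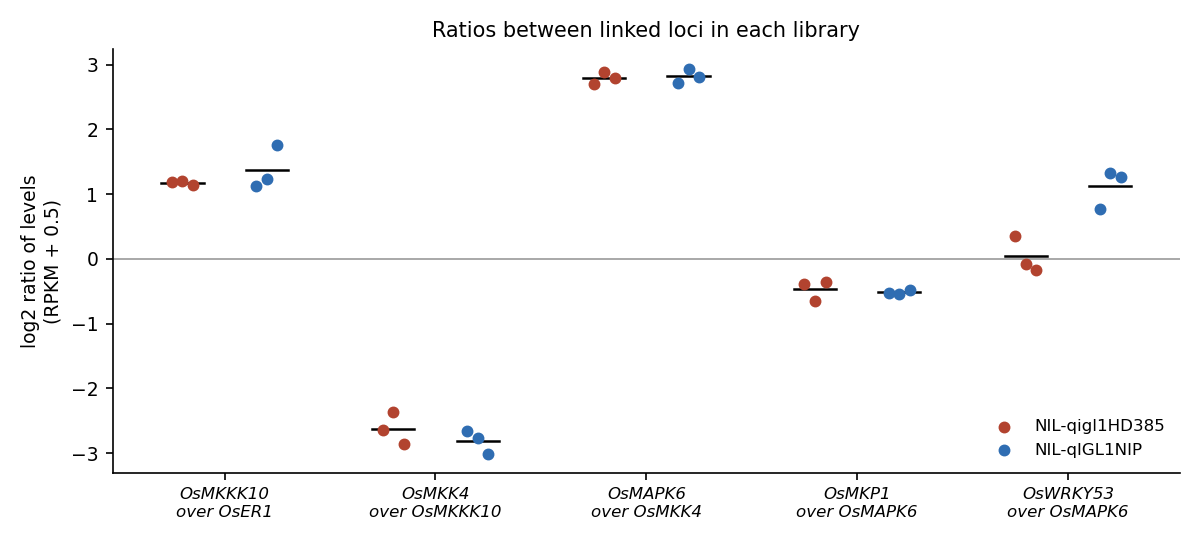
Log2 ratio of the levels of linked loci (vertical axis, RPKM + 0.5) in each library of NIL-qigl1HD385 (red, left) and NIL-qIGL1NIP (blue, right), with line means as black bars. The lines overlap in 4 ratios, and OsWRKY53 over OsMAPK6 is at most 0.35 in NIL-qigl1HD385 and at least 0.77 in NIL-qIGL1NIP.

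Other loci of the 2 kinase families were taken from published rice nomenclature, a pairing held by neither the deposited table nor the RefSeq genes, so they are given by identifier. Of 15 other MAPK loci, all 15 were tested and 0 were called in limma (2 at an unadjusted p under 0.05, below the 17.0% of tested loci that passed it, and 0 called in voom). Their log2 changes ran from -1.10 to 0.92 with a median of 0.06, 10 above 0 and 5 below. LOC_Os03g17700 had 52.6, 32.0 and 48.9 RPKM in NIL-qigl1HD385, against 79.7, 98.3 and 105 RPKM in NIL-qIGL1NIP, without overlap. The log2 change was -1.10 (95% interval -1.61 to -0.59, adjusted p = 0.096 in limma), which is close in size to that of OsWRKY53 and likewise missed the threshold. LOC_Os01g43910 had 38.5, 77.9 and 44.3 RPKM in NIL-qigl1HD385, against 26.3, 29.9 and 24.3 RPKM in NIL-qIGL1NIP, and its log2 change was 0.92 (95% interval 0.29 to 1.55, adjusted p = 0.17 in limma). Here NIL-qigl1HD385 was the higher line, again without overlap, and its replicate 2 stood far above the other libraries. The lines did not overlap for 3 of the 15 MAPK loci, below the 26.5% of tested loci without overlap.

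Of 7 other MAPKK loci, 5 passed the filter on low values, and 0 of these were called in limma (0 at an unadjusted p under 0.05, and 0 called in voom). The median log2 change was 0.18, with a range of -0.27 to 0.31. The smallest adjusted p values were 0.39 for LOC_Os06g27890, at 12.9 ± 0.76 RPKM in NIL-qigl1HD385, against 11.4 ± 0.58 RPKM in NIL-qIGL1NIP, and 0.41 for LOC_Os06g09180, at 2.01 ± 0.41 RPKM in NIL-qigl1HD385, against 1.51 ± 0.17 RPKM in NIL-qIGL1NIP (SD, n = 3 each, limma). By mean level, OsMAPK6 ranked 11 of 16 MAPK loci, which reached up to 69.4 RPKM. OsMKK4 ranked 5 of 8 MAPKK loci, one of which was listed at 0 in every library.

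**Figure D5:**
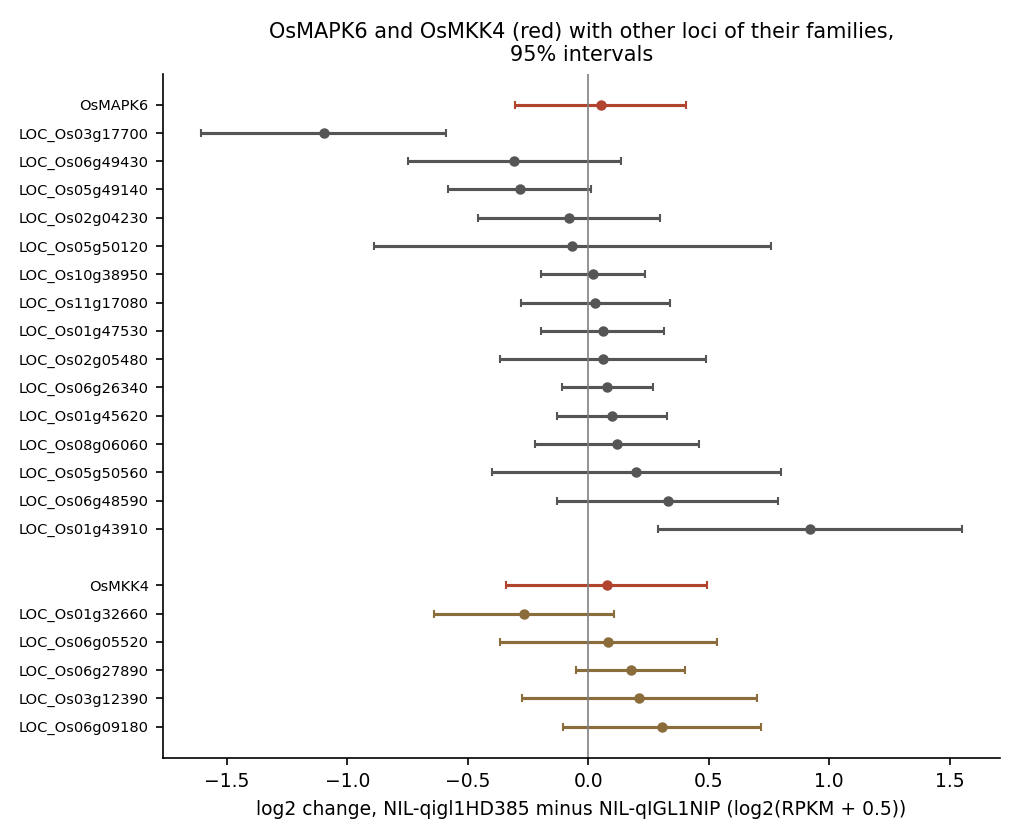
Log2 change between the lines (horizontal axis, NIL-qigl1HD385 minus NIL-qIGL1NIP) with 95% intervals in limma for OsMAPK6 and OsMKK4 (red) and the tested loci of the MAPK (grey) and MAPKK (brown) families. The intervals of LOC_Os03g17700, at -1.10, and LOC_Os01g43910, at 0.92, leave out 0, and those of OsMAPK6 and OsMKK4 span it.

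The likeness of a locus to each of the 6 was measured as the root mean square difference between log2 profiles over the 6 libraries, each centred on its own mean. OsWRKY53 was nearest to LOC_Os05g37080, with a difference of 0.087, and 2 loci in all lay within 0.1. LOC_Os05g37080 had 1.00, 0.91 and 0.711 RPKM in NIL-qigl1HD385, against 1.89, 2.92 and 2.28 RPKM in NIL-qIGL1NIP. On log2(RPKM + 0.5) this is a similar pattern at a far lower level (log2 change -1.05, adjusted p = 0.078 in limma). At so low a level the added 0.5 RPKM shrinks log2 differences, so this likeness depends on that scale. The other 5 had flatter profiles shared by many loci, 140 within 0.1 for OsER1, 723 for OsMKKK10, 920 for OsMAPK6, 1127 for OsMKK4 and 1797 for OsMKP1. Their nearest loci were LOC_Os03g49600 for OsER1 (difference 0.027), LOC_Os10g36690 for OsMKKK10 (0.014), LOC_Os03g64250 for OsMKK4 (0.017), LOC_Os01g04814 for OsMAPK6 (0.021) and LOC_Os03g06880 for OsMKP1 (0.0087). Among the 6 themselves, OsMKK4 and OsMAPK6 were the closest pair, at 0.085, nearly tied with OsMKK4 and OsMKP1 at 0.088. These loci shared a low centred value in NIL-qIGL1NIP replicate 3: -0.32 for OsMKK4, -0.33 for OsMAPK6 and -0.31 for OsMKP1. OsWRKY53 was at least 0.55 from every other member.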

How the data were processed

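Stranded mRNA libraries of young panicles were read in paired mode on a DNBSEQ-T7 sequencer, per the labels' protocols. The authors deposited 1 RPKM value per locus and library. Trimmomatic 0.36, featureCounts, Subread 1.5.1 and edgeR 3.12.1 are named, without roles, in the submitters' processing notes; for the aligner, build, strand setting and counting of read pairs, nothing is given in the sources used here. Reads of overlapping or near-identical loci may therefore be shared or lost. None of the 39387 RefSeq genes available carried a LOC_Os identifier (0 matched), so no sequences or coordinates were used.

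RPKM values are whole multiples of 1 read, from which library totals of 43536754 to 52466060 reads and gene model lengths were recovered in Python 3.11.15 (100% of values above 0 whole within 0.003 of a read, with a small relative allowance). Totals and lengths were themselves chosen so that values came out whole. The smallest fitting length was taken for every locus, so lengths and reads may be too small where more than 1 length fits.

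Values were tested in limma 3.58.1 (R 4.3.3) on the scale log2(RPKM + 0.5), with a variance trend, no covariate and two-sided p-values. The 23181 loci averaging at least 0.5 RPKM entered the test, and calls needed an adjusted p (Benjamini-Hochberg, over all of them) under 0.05. Fold changes are on that scale and understate those of low loci. Intervals are 95%. The recovery of library totals and reads was tested on simulated data. All 6 loci are named; the nearest locus to each, and the 2 family loci per list with the smallest adjusted p, followed a written rule. The rule that picks the 6 loci uses identifiers and no measured value, but the loci and lists were chosen with earlier results of these data known.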

Additional observations from a re-analysis of the deposited data

How the results depend on the processing

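Of the 6 loci, 0 were called in any of the 16 alternatives in which they were tested (pseudocounts of 0.1 and 1, no filter, a filter at a mean of 2 RPKM, quantile normalization, median-ratio scaling, the replicate block, robust or untrended variance, each library left out, and limma voom on recovered reads, which was added after the data had been seen); the stricter filter removes OsMKK4. With 1 library left out, log2 changes ran from -0.16 to 0.25 for OsER1, -0.23 to 0.024 for OsMKKK10, -0.067 to 0.19 for OsMKK4, -0.10 to 0.14 for OsMAPK6, -0.030 to 0.18 for OsMKP1 and -1.15 to -0.84 for OsWRKY53. The family lists had 0 calls throughout. The 5 ratios were recomputed in 10 alternatives, and none of their line differences moved by more than the SD pooled over both lines; the difference in OsMKKK10 over OsER1 was -0.19 with all libraries and -0.0021 without NIL-qIGL1NIP replicate 3 (pooled SD 0.24). Over all loci, 170 calls became 94 with the stricter filter, which tests 17697 loci, and 84 to 112 with 1 library left out. The replicate block gave 46 calls over all loci and an adjusted p of 0.25 for OsWRKY53 (limma). The labels do not say that equal numbers mark a pair; deviations of libraries with the same number from their line means correlated at -0.28, -0.25 and -0.41 across loci, and 0 of the 6 libraries matched its own number best. For OsMKK4, 80 to 159 reads per library limit the precision.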
